A study of Mus musculus and Homo sapiens with 12 samples.

Results

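The mitochondrial ribosomal protein genes were taken as the protein-coding nuclear genes whose symbol was Mrpl or Mrps in mouse, or MRPL or MRPS in human, followed by a digit. The rule used symbols alone and no measured value. It gave 78 of the 54446 genes in the mouse count table and the same 78 symbols among the 58721 genes of the human table. Of the 78, 49 carried the letter of the large subunit (MRPL) and 29 that of the small subunit (MRPS). Pseudogenes with such symbols, which are near copies of the transcripts, were left out. The 5 mouse pseudogene entries held 51 counts in all libraries together and the 79 human ones held 106.

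The mitochondrial ribosome translates the few messenger RNAs transcribed from mitochondrial DNA, all of which encode subunits of the respiratory chain and of ATP synthase. Its RNA comes from the mitochondrial genome, but its proteins are encoded in the nucleus, made in the cytosol and imported. Some of them descend from bacterial ribosomal proteins and others are particular to mitochondria. Symbols do not always follow the structure. MRPS30 and MRPS18A sit in the large subunit, and MRPS36 is now known as a subunit of the 2-oxoglutarate dehydrogenase complex.

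The libraries profiled 5-methylcytosine (m5C) in chromatin-associated RNA (caRNA), the RNA that stays with chromatin after fractionation and that holds much unspliced, nascent transcript. An antibody against m5C pulled down fragmented caRNA (m5C-IP), and the same material without pull-down gave the Input. There were 12 libraries in 4 groups of 3: Input and m5C-IP from mouse ES (mES) cells, and Input and m5C-IP from K562, a human line started from a chronic myeloid leukaemia. All were wild type and none had a treatment. The mES cells were grown with LIF and the inhibitors CHIR99021 and PD0325901 and were cleared of feeder cells on gelatin. For K562 the labels list puromycin in the medium, whereas the paper gives it for its short hairpin RNA lines and not for wild-type cells. Groups were taken from the sample titles, because the antibody field read none for all 6 mES cell libraries and m5C for all 6 K562 libraries. The paper describes its genome-wide data as combining 3 biological replicates. Nothing in the labels said whether replicates came from separate cultures, so the p-values measure the spread between libraries, which may be technical.

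Gene counts came to between 29007088 and 34752646 in the mES cell Input libraries, but to between 473398 and 592324 in the mES cell m5C-IP libraries. In K562 they were 10477119 to 11865285 for Input and 93110 to 111286 for m5C-IP. A count of 3 in 1 library therefore stood for 5.06 to 6.34 counts-per-million (CPM) units, relative to all gene counts, in the mES cell m5C-IP and for 27.0 to 32.2 CPM in the K562 m5C-IP. The mES cell Input carried 9 of 10 pluripotency markers at a summed 2353 to 2387 CPM, and Sox2 was at 0, its whole span lying inside Sox2ot on the same strand. Fibroblast markers summed to 1939 to 1969 CPM there, of which Fn1 alone gave 1862 to 1895 CPM, and their part in the results was not tested. The K562 Input held 8 of 10 markers of the line at 395 to 403 CPM. HBE1 and HBG2 were at 0 and overlap other genes over their whole span. The pluripotency list summed to a like 393 to 406 CPM in the K562 Input, from 5 of its 9 genes found there. NANOG, POU5F1, SOX2 and ZFP42 were at 0. Within the K562 Input these sums thus do not set the lists apart, whereas the K562 list summed to 2.18 to 2.45 CPM in the mES cell Input. The label calls K562 a lymphoblast, but lymphoid markers summed to only 35.0 to 36.7 CPM in its Input, most of it RAG1 at 30.2 to 34.0 CPM.

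The counts covered whole gene spans, introns included, by strand, and reads in a stretch shared by overlapping genes of 1 strand were given to neither. Of the protein-coding genes wholly inside another gene of their strand, 99.8% (451 of 452) in mouse and 93.7% (503 of 537) in human were at 0 in all Input libraries, against 13.6% and 12.4% of the others. Some members were hidden by this. In mouse, Mrpl2, Mrpl33, Mrpl53 and Mrps6 had under 2% of their span to themselves and together held 1 Input count. In human, MRPL12, MRPL30, MRPL38, MRPL46, MRPL53, MRPS17, MRPS24, MRPS28 and MRPS6 were in the same position with 7 Input counts together. Every other member had at least 160 Input counts over the mES cell libraries and at least 41 over the K562 libraries. A level near 0 for one of these 13 genes thus says nothing about its transcription.

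The promoters of mitochondrial ribosomal protein genes are known to be served by general factors, among them NRF1, the ETS factor GABP and YY1. Windows of 300 bases, from 250 before the RefSeq start to 50 after it (GRCm38.p6), were found for 69 of the 78 mouse members. The NRF1 core CGCATGCG was present in 7 of them (10.1%), against 1.91% of all 27025 windows, counting both strands. The ETS motif CCGGAAG was present in 25 (36.2%), against 9.12% of all windows, and the YY1 motif AAGATGG in 13 (18.8%), against 6.48%. At least 1 of these motifs occurred in 37 members (53.6%, against 16.4%) and at least 2 kinds in 8 (11.6%, against 1.12%). A match describes letters only and does not show binding. The ETS motif ends and the YY1 motif begins with AAG, so the pair can overlap, and the NRF1 core reads the same on both strands. The 4 windows printed here belong to the Mrps genes among these 8, chosen because their counts are described next, and capitals mark the motifs on either strand.
Mrps12 (chr7:28741772-28742071, minus strand): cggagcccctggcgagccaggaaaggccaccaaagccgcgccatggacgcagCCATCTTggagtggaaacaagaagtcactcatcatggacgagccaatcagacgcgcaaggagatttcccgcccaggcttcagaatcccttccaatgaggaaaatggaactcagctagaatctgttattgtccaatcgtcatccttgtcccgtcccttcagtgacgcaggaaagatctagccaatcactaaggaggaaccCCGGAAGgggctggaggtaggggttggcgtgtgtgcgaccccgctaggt
Mrps18a (chr17:46110754-46111053, plus strand): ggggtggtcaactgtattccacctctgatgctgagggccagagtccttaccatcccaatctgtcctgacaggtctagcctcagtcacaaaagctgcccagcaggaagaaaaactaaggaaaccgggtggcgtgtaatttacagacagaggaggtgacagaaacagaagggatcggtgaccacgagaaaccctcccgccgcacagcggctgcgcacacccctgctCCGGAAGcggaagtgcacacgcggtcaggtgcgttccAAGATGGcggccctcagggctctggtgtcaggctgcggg
Mrps18b (chr17:35916391-35916690, minus strand): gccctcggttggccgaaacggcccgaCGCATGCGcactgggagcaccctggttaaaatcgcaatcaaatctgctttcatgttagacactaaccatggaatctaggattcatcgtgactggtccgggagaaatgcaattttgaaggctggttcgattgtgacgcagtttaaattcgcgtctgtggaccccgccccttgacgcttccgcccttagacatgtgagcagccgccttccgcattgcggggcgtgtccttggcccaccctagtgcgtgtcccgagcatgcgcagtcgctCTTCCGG
Mrps27 (chr13:99344536-99344835, plus strand): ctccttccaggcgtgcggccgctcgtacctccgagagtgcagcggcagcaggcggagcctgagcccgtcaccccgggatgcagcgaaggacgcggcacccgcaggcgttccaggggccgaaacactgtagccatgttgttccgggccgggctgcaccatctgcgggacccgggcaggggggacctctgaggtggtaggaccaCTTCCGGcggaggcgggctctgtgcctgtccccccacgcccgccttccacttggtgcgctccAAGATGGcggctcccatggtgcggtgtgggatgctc

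Positions were counted from 1 at the start base, with negative numbers before it. In Mrps18a and Mrps27 the YY1 motif began at 12 and 15 and the ETS motif at -26 and, on the other strand in Mrps27, at -48. In Mrps18b the NRF1 core began at -224 and the ETS motif, on the other strand, at 44. In Mrps12 the ETS motif began at 2 and the YY1 motif, on the other strand, at -198.

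As a group, the members took up a smaller share of the gene counts in m5C-IP than in Input in mES cells, and a slightly larger one in K562. Reads not assigned to a gene were left out of these shares. Such reads made up 60.7% to 61.4% of a K562 m5C-IP library against 26.0% to 26.2% of its Input. The direction in K562 thus holds for gene counts alone and not for all caRNA reads. In mES cells the members made up 0.243% to 0.247% of gene counts in the Input libraries and 0.125% to 0.135% in the m5C-IP libraries, so the 2 kinds of library did not overlap. The means were 0.245% ± 0.00228 (SD, n = 3) and 0.131% ± 0.00519 (SD, n = 3), a ratio of 0.534. In K562 the Input libraries held 0.200% to 0.202% and the m5C-IP libraries 0.204% to 0.223%, again without overlap. The K562 means were 0.201% ± 0.00134 (SD, n = 3) and 0.217% ± 0.0109 (SD, n = 3), a ratio of 1.08. The counts behind the m5C-IP shares were few. The members summed to 593, 778 and 802 counts in the mES cell m5C-IP libraries and to 241, 227 and 207 in those of K562, with a median of 4 to 6 and of 2 counts per member.

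**Figure D1:**
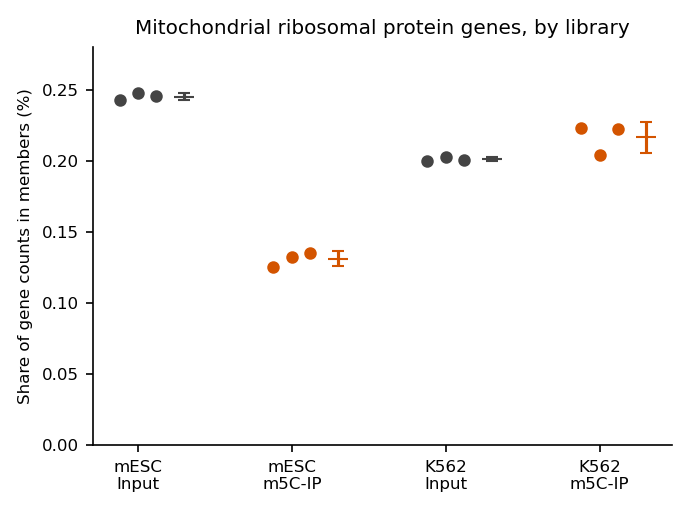
Share of all gene counts held by the 78 mitochondrial ribosomal protein genes, in percent on the y axis, for each Input and m5C-IP library of mES cells and K562 on the x axis. Points are libraries and bars their mean and SD (n = 3). The mES cell m5C-IP libraries sit at 0.125% to 0.135%, below their Input at 0.243% to 0.247%, whereas both kinds lie between 0.200% and 0.223% in K562.

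The first comparison asked which members gained or lost in the m5C pull-down relative to Input in mES cells. Of the 78 members, 74 had enough counts to be tested, and the 4 overlapped members did not. By edgeR's quasi-likelihood test with Benjamini-Hochberg adjustment over 20244 genes, 66 of the 74 were lower in m5C-IP and 0 were higher at an adjusted p under 0.05. At an unadjusted p under 0.05 the counts were again 66 and 0, and DESeq2 called 0 members higher. Over all genes tested 42% were lower and 39.9% higher, and over protein-coding genes 50.1% and 33.3%. The median log2 IP/Input of the members was -1.94 (interquartile range -2.46 to -1.28), and all 74 values were negative. The median over all genes was -0.17 with the TMM scaling used and 0.83 with library size alone. Relative to all genes, the members therefore stood at -1.76 (log2).

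How far the members fell in absolute terms depends on that scaling. In plain CPM, which uses library size alone, 43 members had all 3 m5C-IP values below all 3 Input values, against 27.6% of all genes. Only Mrpl48 and Mrps36 had all 3 above, against 47.7% of all genes. The Input level moved with these values too. Among protein-coding genes with an Input between 10.9 and 36.1 CPM, the interquartile range of the members, 63.4% were lower and 11.7% higher, with a median of -1.04. The 36 members inside that range had a median of -1.83, and 33 of them were lower. Of the 4 members that had no m5C-IP count, 3 could be given a bound, and with these at their bound and the fourth left out the median of 73 was -1.80.

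The difference between the subunits was not tested, and their values stood side by side. Of the tested members with a large-subunit symbol 42 of 46 were lower, with a median log2 IP/Input of -1.82, and of those with a small-subunit symbol, MRPS36 aside, 24 of 27 with a median of -1.97. Proteins with a bacterial homologue (41 of 45, median -1.97) and those particular to mitochondria (25 of 28, median -1.80) stood likewise. The 8 members that did not pass were Mrpl14, Mrpl34, Mrpl44, Mrpl48, Mrps17, Mrps21, Mrps26 and Mrps36.

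**Figure D2:**
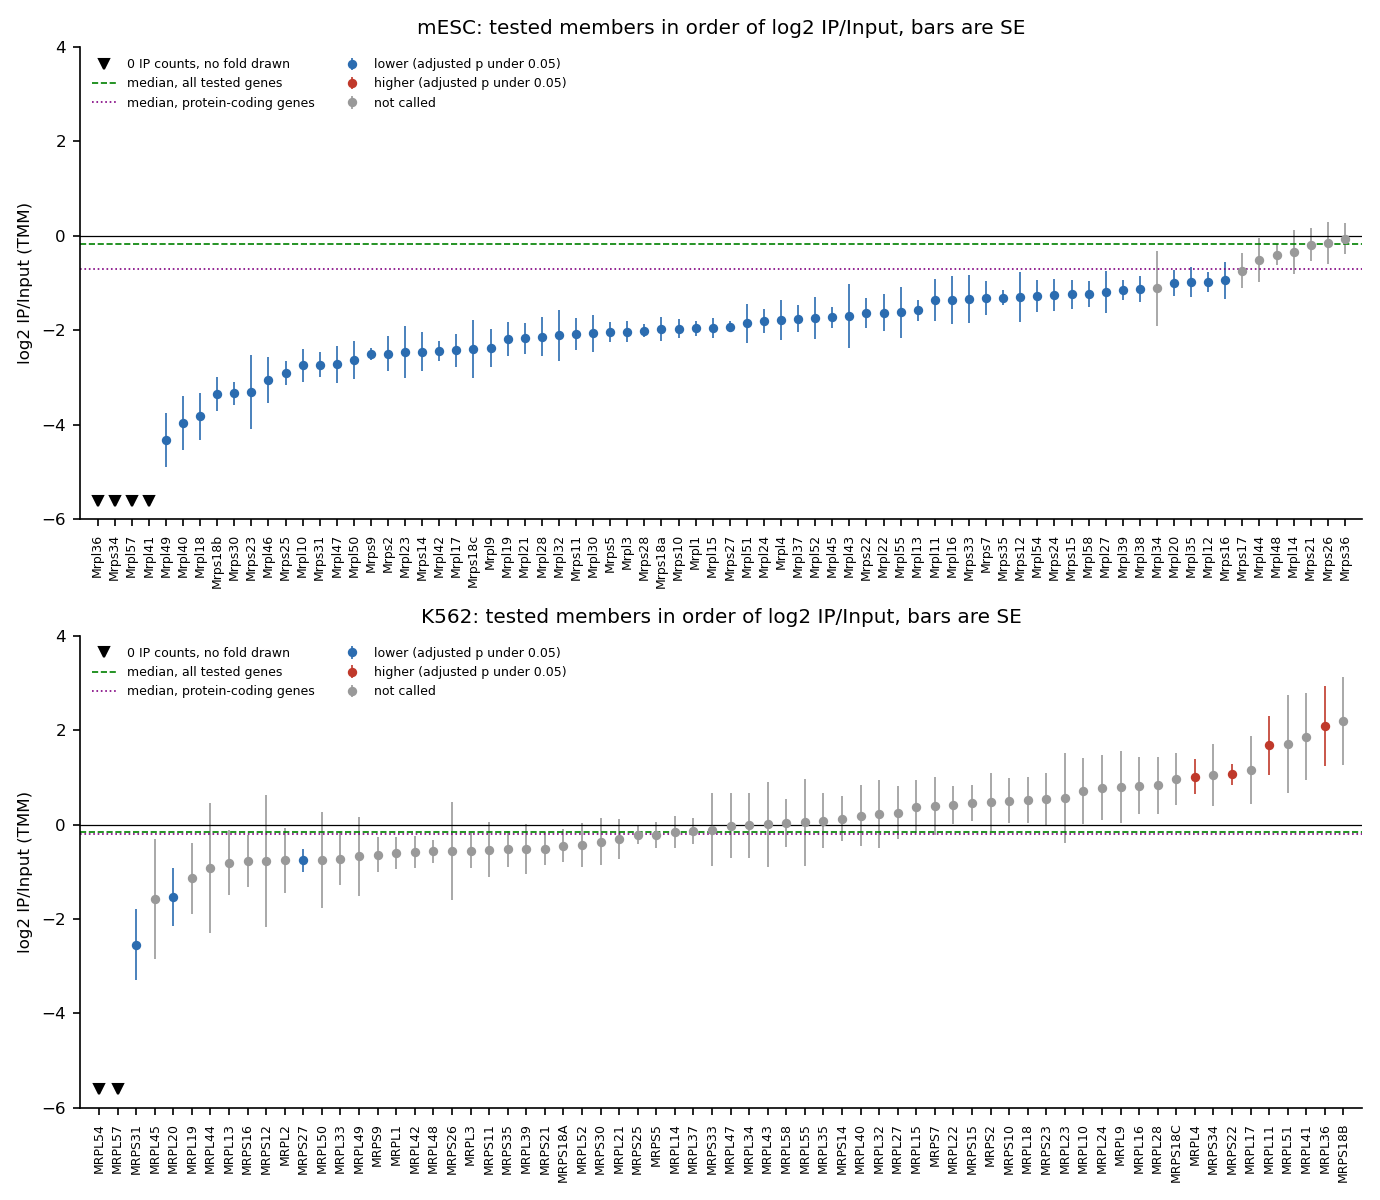
Log2 IP/Input of each tested member, by edgeR with TMM scaling, on the y axis, in mES cells and in K562, with members sorted by value on the x axis. Points are members with bars of 1 SE, blue where lower, red where higher and grey where not called, triangles mark members without m5C-IP counts, and the dashed and dotted lines are the medians of all and of protein-coding genes (-0.17 and -0.70 in mES cells). All 74 mES cell values lie below 0 and 66 are called lower, whereas the 68 K562 values spread around 0 with 4 called higher and 3 lower.

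Among called members with at least 5 m5C-IP counts and no overlap between Input and m5C-IP, the lowest values were those of Mrps18b, Mrps30, Mrpl46, Mrps25 and Mrpl10. Mrps18b (GRCm38 chr17:35910379-35916389, minus strand), one of a trio of genes for relatives of the bacterial protein S18, had 33.1, 34.3 and 35.8 CPM in the Input libraries and 6.34, 3.4 and 10.1 CPM in the m5C-IP libraries. Each m5C-IP library was thus below each Input library, with 11 m5C-IP counts in all. Its log2 IP/Input was -3.34 (SE 0.35, adjusted p = 2.68e-07, edgeR quasi-likelihood test). Mrps30 (chr13:118378381-118387252, minus strand) had 80.6, 81.5 and 80.3 CPM in Input and 8.45, 22.1 and 15.2 CPM in m5C-IP. Introns make up 24.9% of its span, against a median of 66.0% over the members. Its log2 IP/Input was -3.33 (SE 0.24, edgeR adjusted p = 2.3e-09). Mrps25 (chr6:92169525-92184033, minus strand), whose human gene is mutated in a mitochondrial disease, had 60.3, 58.1 and 60.9 CPM in Input and 19, 20.4 and 8.44 CPM in m5C-IP. Here too no m5C-IP library reached an Input library, and its log2 IP/Input was -2.90 (SE 0.26, edgeR adjusted p = 3.43e-08). Mrpl46 and Mrpl10, the second of which forms the base of the stalk that recruits translation factors, were lower by -3.05 (SE 0.48, edgeR adjusted p = 2.28e-05, 5 m5C-IP counts) and -2.74 (SE 0.35, adjusted p = 2.39e-06, 15 m5C-IP counts) on the log2 scale.

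At the other end of the called members whose Input and m5C-IP values did not overlap stood Mrps15, Mrps35, Mrpl13, Mrpl45 and Mrpl24. Mrps15 had 18.6, 22.1 and 22.3 CPM in Input and 16.9, 17.0 and 18.6 CPM in m5C-IP, so the libraries almost met, and its log2 IP/Input was -1.24 (SE 0.30, edgeR adjusted p = 0.00138). Mrps35 had 75.7, 75.9 and 74.0 CPM in Input against 40.1, 68.0 and 67.5 CPM in m5C-IP. With 99 m5C-IP counts its value of -1.30 (SE 0.17, edgeR adjusted p = 2.59e-06) was among the better measured ones. Mrpl13 was at -1.58, Mrpl45, a membrane anchor of the ribosome close to the polypeptide exit, at -1.73, and Mrpl24 at -1.80 (log2 IP/Input). The calls of Mrps15, Mrps35 and Mrpl13 were lost with library size alone, so they rest on the scaling. With Input thinned to the m5C-IP depth, these calls and those of Mrpl45 and Mrpl24 were lost.

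The 2 most abundant members by Input count were also the best measured. Mrps9 had 222, 228 and 223 CPM in Input and 71.8, 91.8 and 67.5 CPM in m5C-IP (21700 and 128 counts), which gave -2.51 on the log2 scale (edgeR adjusted p = 3.99e-11, SE 0.13). Mrps27, a pentatricopeptide repeat protein that binds mitochondrial RNA, had 212, 215 and 211 CPM in Input and 112, 93.5 and 125 CPM in m5C-IP (20596 and 182 counts). Its log2 IP/Input was -1.92 (SE 0.11, edgeR adjusted p = 2.79e-10). Both genes thus kept Input and m5C-IP apart in all 6 libraries in plain CPM.

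**Figure D3:**
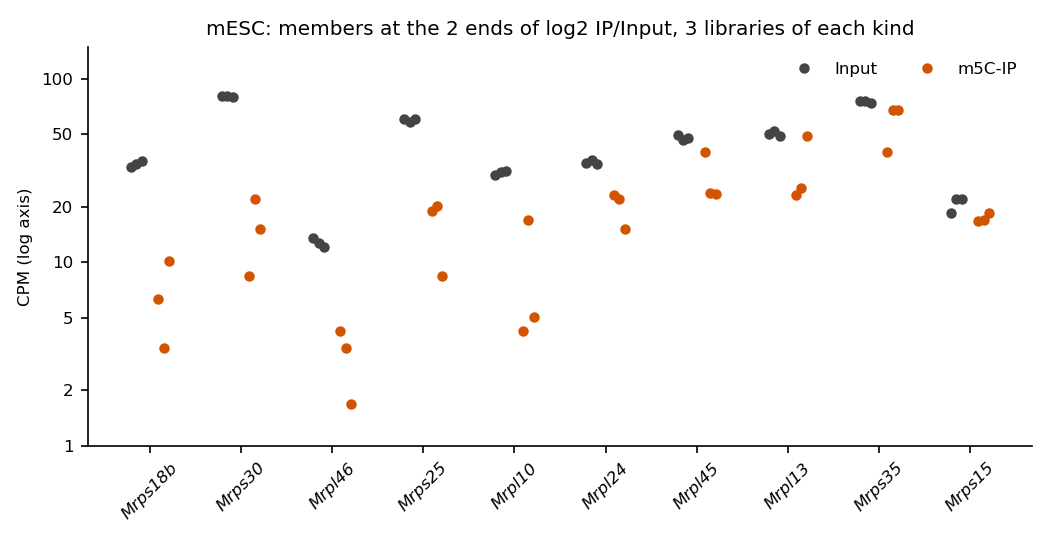
Values of the named mouse members in each of the 6 mES cell libraries, in CPM on a logarithmic y axis, with 1 column per gene on the x axis. Points are libraries, black for Input and orange for m5C-IP. Mrps18b lies at 33.1 to 35.8 CPM in Input and 3.4 to 10.1 CPM in m5C-IP, and Mrps15 at 18.6 to 22.3 and 16.9 to 18.6 CPM.

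Not every call meant fewer CPM. Mrpl12, the stalk protein reported to bind the mitochondrial RNA polymerase, had 37.9, 36.6 and 34.4 CPM in Input and 40.1, 35.7 and 33.8 CPM in m5C-IP. Its Input and m5C-IP libraries overlapped. Its log2 IP/Input was -0.97 with TMM (edgeR adjusted p = 0.000407) and 0.03 with library size alone, so its call rests on the scaling. The same held for Mrps16, at -0.94 with TMM and 0.06 with library size alone, whose call was also lost without any of 5 of the 6 libraries. Mrpl48 had 22.7, 24.7 and 25.4 CPM in Input and 42.3, 30.6 and 37.1 CPM in m5C-IP. Mrps36 had 8.45, 7.84 and 7.80 against 21.1, 11.9 and 13.5 CPM. For this pair all m5C-IP libraries exceeded all Input libraries in CPM, yet the log2 IP/Input was -0.39 and -0.06 with TMM, and 0.61 and 0.95 with library size alone, which called both higher.

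The rest of the panel chosen by role fell in between in mES cells. Mrps7, a protein of the small-subunit head, had a log2 IP/Input of -1.31 and Mrps12, which lines the decoding centre, one of -1.29 with 10 m5C-IP counts. Mrpl58, a peptidyl-tRNA hydrolase built into the large subunit, stood at -1.22, and Mrpl11, part of the factor-binding region, at -1.36, with 2.11, 3.4 and 21.9 CPM in m5C-IP against 12.5 to 12.7 CPM in Input. Mrpl11 thus had 1 m5C-IP library above all Input libraries. Mrps18a and Mrps18c, the other relatives of S18, were at -1.97 and -2.40, the latter with 4 m5C-IP counts. The calls of Mrpl11 and Mrps12 were each lost when any of 5 of the 6 libraries was left out. With library size alone the calls of Mrps7, Mrps12, Mrpl58, Mrpl11 and Mrps18c were lost, whereas that of Mrps18a was kept. Mrpl44, which has a ribonuclease III fold, did not pass (-0.50, edgeR adjusted p = 0.318).

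Of the 4 tested members without a single m5C-IP count, 3 can be given a bound, with the floor of 3 counts taken over the 3 m5C-IP libraries together. Mrpl36 was at least 2.20-fold lower in CPM than in Input, Mrps34 at least 1.63-fold and Mrpl57 at least 1.56-fold. For Mrpl41 the Input, 1.65 CPM over its libraries together, was under that floor of 1.81 CPM, so no fold is given.

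In K562 the same 78 genes showed no shift of this kind. Of the 68 members tested among 14522 genes, 4 were higher and 3 lower by edgeR's quasi-likelihood test with Benjamini-Hochberg adjustment, and 10 had an unadjusted p under 0.05. Over all genes 15.1% were higher and 16.4% lower, and over protein-coding genes 14.1% and 18.3%. The median log2 IP/Input of the members was -0.06 against -0.16 for all genes, or -0.02 over the 66 members with an m5C-IP count, and 36 of the 68 values were negative. In plain CPM 11 members had all m5C-IP values below all Input values, against 24.4% of all genes, and 8 had all above, against 22.4%. Among protein-coding genes of like Input (9.36 to 32.8 CPM) 10.3% were higher and 3.4% lower, and among the 34 members in that range 1 was higher and 2 were lower. The median m5C-IP count of a tested member was 7 over the 3 libraries, so single members were measured coarsely.

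MRPS22 (GRCh38 chr3:139005806-139360497, plus strand), a small-subunit protein particular to mitochondria and mutated in a human mitochondrial disease, had 69.8, 71 and 66.0 CPM in Input and 176, 153 and 172 CPM in m5C-IP. Every m5C-IP library was far above every Input library, with 52 m5C-IP counts. Its log2 IP/Input was 1.06 (SE 0.22, edgeR adjusted p = 3.54e-05). The annotated span of 354692 bases also runs over BPESC1 and PISRT1, so 93.9% of it was counted for MRPS22 alone. MRPL4, a protein at the exit tunnel, had 29.1, 27.8 and 25.4 CPM in Input and 46.3, 80.9 and 64.4 CPM in m5C-IP (20 counts). It was higher at 1.01 (SE 0.37, edgeR adjusted p = 0.0265), and its call was kept under 9 of 16 alternatives, being lost without m5C-IP replicate 2 or replicate 3, with either GC correction, with thinned Input, with the replicate block and without a filter. MRPL11 had 7.59, 8.50 and 7.16 CPM in Input and 46.3, 8.99 and 32.2 CPM in m5C-IP, from 9 m5C-IP counts in all. Its call at 1.68 (edgeR adjusted p = 0.0273) was also kept under 9 of 16, being lost without m5C-IP replicate 1 or replicate 3, with the span GC correction, thinned Input, the replicate block or no filter, and not tested with the filter of at least 20 m5C-IP counts. That of MRPL36 (2.09, adjusted p = 0.0483) rested on 5 counts and was kept under 5 of 16.

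The lower calls in K562 were as thin. MRPS27 had 134, 140 and 134 CPM in Input and 102, 89.9 and 85.9 CPM in m5C-IP from 29 counts. The 2 kinds of library did not overlap, and the log2 IP/Input was -0.76 (SE 0.24, edgeR adjusted p = 0.00958), a call kept under 9 of 16 alternatives. It was lost without m5C-IP replicate 2 or replicate 3, with DESeq2, library size alone, the span GC correction, thinned Input or at least 20 m5C-IP counts. MRPS31 had 2 m5C-IP counts, a CPM ratio of 0.197 with an exact 95% interval of 0.0238 to 0.713 that covers counting error only, and its call was kept under 11 of 16. MRPL20 had 4 (log2 IP/Input -1.54, edgeR adjusted p = 0.0411), with its call kept under 4 of 16. MRPS25, the member with the most m5C-IP counts in K562 (57), had 184, 182 and 190 CPM in Input and 167, 144 and 247 CPM in m5C-IP, so the libraries overlapped, and its log2 IP/Input of -0.23 did not pass (edgeR adjusted p = 0.387).

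The panel chosen by role gave values on both sides of 0 in K562. MRPS18A had 58.2, 55.7 and 56.3 CPM in Input and 46.3, 44.9 and 53.7 CPM in m5C-IP (log2 IP/Input -0.45), so its m5C-IP libraries were all lower, without passing the test (edgeR adjusted p = 0.355). MRPS18B (2.19, 4 counts), MRPS34 (1.05, 7 counts), MRPS18C (0.96, 10 counts), MRPL10 (0.71, 6 counts), MRPS7 (0.40, 7 counts) and MRPL58 (0.02, 9 counts) had log2 IP/Input values above 0 and did not pass. MRPL45 (-1.57), MRPL44 (-0.92) and MRPS12 (-0.77) rested on 1 m5C-IP count each. MRPL12 lies inside another gene and had no count, and MRPS36, with 41 Input and 2 m5C-IP counts, was not tested.

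The comparison of the lines asked whether the IP/Input ratio of a gene differed between K562 and mES cells, as the interaction of line and library kind over 14130 genes paired by symbol. This joint fit was scaled over its own genes. A difference from it therefore need not equal the gap between the log2 ratios of the separate fits. Species, culture medium and depth differ together with the line and cannot be told apart from it. Of 76 members in that fit, 20 had a higher ratio in K562 and 0 a lower one (edgeR quasi-likelihood test, adjusted p under 0.05), and 27 had an unadjusted p under 0.05 in either direction. Over all genes 16.4% were higher and 14.5% lower in K562. Of the 76, 10 were not tested in one of the lines, 9 of them because they had no count in any of its libraries, so that they have no ratio to compare. All 20 calls lay among the 66 members tested in both lines, where 20.2% of the 9913 genes tested in both were higher and 17% lower. The median difference of these 66 members was 1.19 (log2) against 0.34 for those genes. DESeq2 called 29 of the 76 higher and 3 lower, but 7 and 2 of these were members without a count in one line, which leaves 22 higher and 1 lower, MRPL48, named after its values were seen. All 20 were lower in m5C-IP in mES cells, and of them 4 were higher and 16 not called in K562. Few counts stood behind many of these calls, as 12 of the 20 had under 10 K562 m5C-IP counts and 3 had no mES cell m5C-IP count. By symbol, 9 of 48 large-subunit and 11 of 27 small-subunit members were among the 20.

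**Figure D4:**
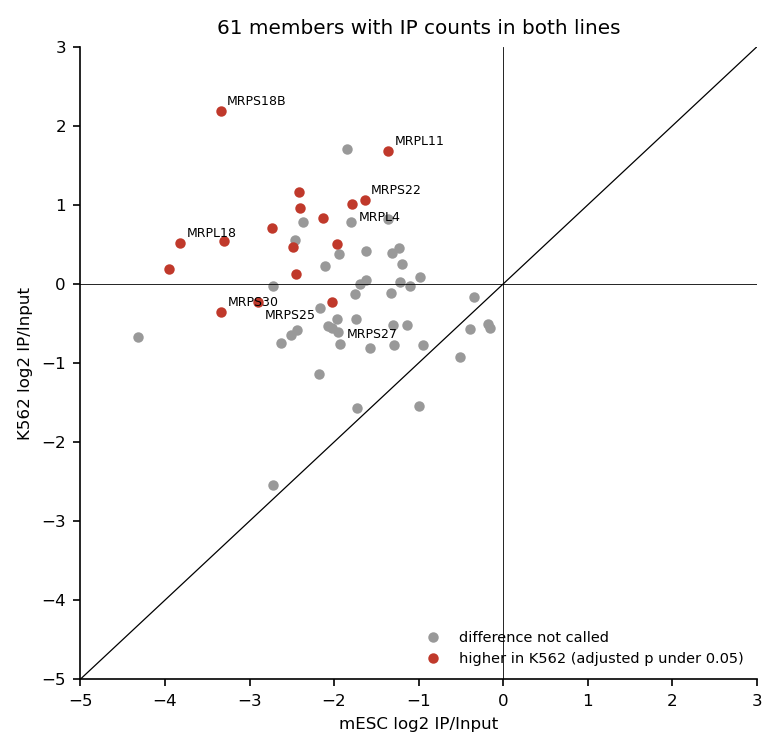
Log2 IP/Input in mES cells (x axis) against K562 (y axis) for the 61 members with m5C-IP counts in both lines, 1 point per gene, with the diagonal drawn. Red points are members whose ratio differed between the lines by the interaction test. Of the 61 points, 56 lie above the diagonal and 5 below it, and MRPS22 and MRPL4 lie above 0 on the K562 axis. The axes show the separate fits of the lines, whereas the interaction test has its own scaling, so the diagonal is not its line of no difference. MRPL14, for one, lies above the diagonal with a fitted difference of -0.46. In the fit of the interaction 15 of 76 members had a difference below 0.

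The differences with the most counts behind them were those of MRPS25 and MRPS22. For MRPS25 the log2 IP/Input was -2.90 in mES cells and -0.23 in K562, and the difference was 2.04 (SE 0.39, edgeR adjusted p = 0.000171) from 26 and 57 m5C-IP counts. For MRPS22 it was -1.64 in mES cells, with 14.8, 37.4 and 8.44 CPM in m5C-IP against 31.2, 32.8 and 33.7 CPM in Input, and 1.06 in K562. The mES cell libraries overlapped, but the difference of 2.07 (SE 0.41, edgeR adjusted p = 0.000258) stayed past the threshold under all 22 alternatives run. None of these changed the span counted, which was 354692 bases for human MRPS22, whereas no mouse member exceeded 121773 bases. The part of the unlike spans was not tested. The largest fitted differences, for MRPL36 (10.51), MRPS34 (9.04) and MRPL41 (9.02), come from genes at 0 in the mES cell m5C-IP and give no size, and the calls of MRPL36 and MRPL41 were lost without K562 m5C-IP replicate 1. MRPS18B, whose call was lost without K562 m5C-IP replicate 2 or replicate 3, was next at 4.90 (SE 1.32, edgeR adjusted p = 0.00489) with 11 and 4 m5C-IP counts. Its K562 Input was 2.34 to 2.53 CPM against 33.1 to 35.8 CPM in mES cells.

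Across the 66 members tested in both lines the ranks of the 2 log2 ratios had a Spearman rho of -0.26, a description over genes that share their libraries. Both lines gave a negative value for 34 of the 66, and 32 were below 0 in mES cells and above 0 in K562.

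Input levels were set per kilobase of span free of other genes, for the 69 mouse and 66 human members with at least 90% of their span free. In mES cells the highest were Mrps30 (9.09, 9.18 and 9.05 CPM per kb in the 3 libraries), Mrpl24 (8.48 ± 0.231 CPM per kb, SD, n = 3) and Mrpl12 (8.16 ± 0.388). Mrps30 was above Mrpl24 in each library, whereas the ranges of Mrpl24 and Mrpl12 overlapped. The lowest were Mrpl48 at 0.388 ± 0.0215, Mrps33 at 0.848 ± 0.0432 and Mrpl14 at 0.861 ± 0.0488 CPM per kb, and Mrpl48 stood clear of the other two, which did not differ beyond their spread. In K562 the highest were MRPS34 (7.43 ± 0.319 CPM per kb), MRPS16 (7.40 ± 0.414) and MRPL52 (6.57 ± 0.229), the first 2 of which did not differ beyond their spread. MRPS36 (0.0963 ± 0.0404), MRPL23 (0.152 ± 0.00414) and MRPS22 (0.207 ± 0.00791) were lowest. Of the 78 human members 73, MRPS22 among them, have another ID version in the annotation that gave the spans. A human level per kilobase is thus uncertain where the gene model changed, which was not checked. Set per kilobase of the longest transcript instead, a length chosen after seeing the data, 0 of these 6 mES cell genes and 1 of these 6 K562 genes stayed among the 3 at either end, so the order rests on the span.

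**Figure D5:**
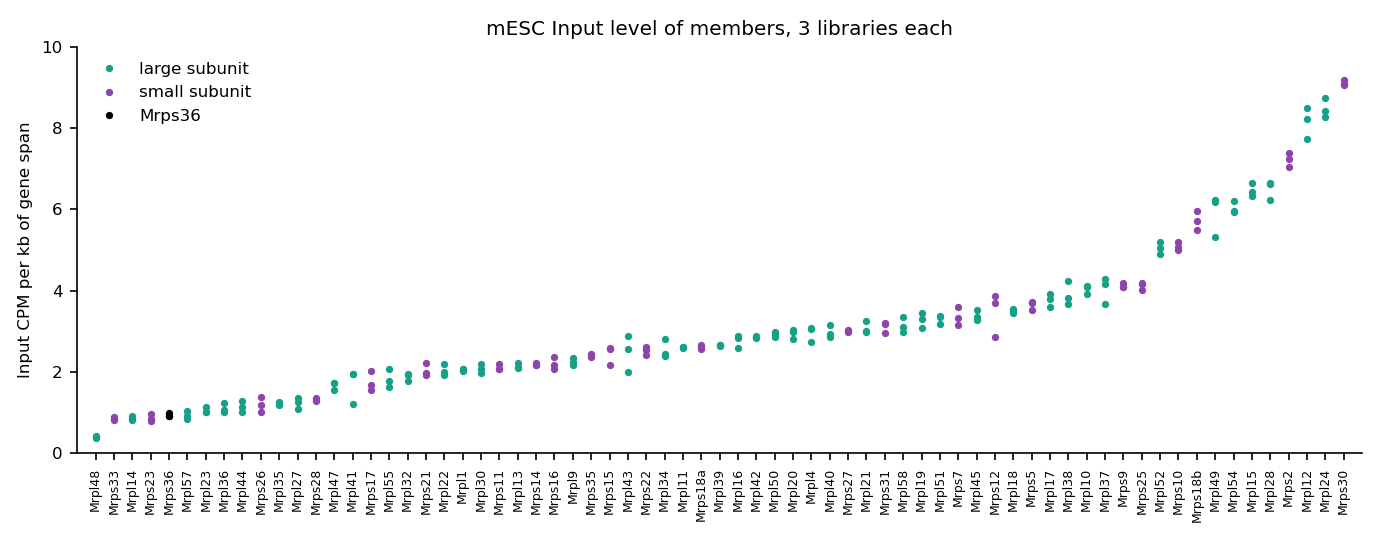
Input level in mES cells of the 69 members with at least 90% of their span free, in CPM per kilobase of that span on the y axis, with members sorted by mean level on the x axis. Each member has 3 points, 1 per Input library, coloured by the subunit letter of its symbol. The means run from 0.388 (Mrpl48) to 9.11 (Mrps30), and the 3 points of neighbouring members overlap along most of the order.

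Members were short genes. Their median span was 7899.5 bases against 27011 for the protein-coding genes tested in mES cells, and 11940.5 against 39273.5 bases in K562, whereas GC content was close (46.3% against 45.8% and 46.3% against 44.4%). Spearman's rho between the log2 IP/Input of the 74 members in mES cells and GC content was 0.11, and with span length 0.07. Over the 33 members with at least 20 m5C-IP counts these were 0.25 and -0.42, and rho with the repeat-masked share of the span was 0.45 (0.21 over the 74). With Input CPM it was -0.11 over the 74, but -0.77 over the 33 and -0.76 over 15641 protein-coding genes. In K562, over 68 members, rho was 0.32 with GC content, -0.32 with span length and -0.32 with Input CPM. Input CPM also enters the ratio itself, so these correlations are descriptions.

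Other genes of mitochondrial translation were also mostly lower in mES cells, which was not particular to them. Of the mitoribosomal proteins without an MRP symbol 5 of 6 tested were lower, of the assembly factors 24 of 27, of the translation factors 15 of 18 with 1 higher, and of the mitochondrial tRNA synthetases 20 of 20, where 42% of all and 50.1% of protein-coding genes were lower. Of the genes for mitochondrial transcription and the nucleoid 16 of 17 were lower, and of the regulators of nuclear genes for mitochondria 6 of 8 with 1 higher. Their median log2 IP/Input ran from -1.80 to -1.37, all above the -1.94 of the members. In K562 the same lists had 1 higher and 2 lower of 6, 1 and 3 of 26, 2 and 4 of 19, 1 and 4 of 18, 2 and 2 of 17 and 0 and 4 of 7, against 15.1% higher and 16.4% lower over all genes. For the difference of the lines they had 2 higher and 0 lower of 6, 2 and 0 of 27, 5 and 1 of 18, 2 and 1 of 20, 5 and 1 of 17 and 0 and 1 of 8, against 16.4% and 14.5% over all genes. Several of these counts lie near or below the shares over all genes. The lists were not matched for Input level. In mES cells the pluripotency markers were lower in 9 of 9 tested (median -1.65). Fibroblast markers were lower in 5 of 7 with 1 higher (median -1.64). Of the markers of K562 and of the lymphoid markers, 3 of 4 tested were higher in each list and 0 lower, against 39.9% and 42% over all genes. These lists summed to only 2.18 to 2.45 and 12.3 to 13.7 CPM in the mES cell Input. Genes so low in Input can have passed the filter through their m5C-IP counts, so these counts are no evidence of a gain.

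Single genes of the mitochondrial lists show the range. DAP3, a GTP-binding protein of the small subunit, was lower in both lines, at -1.74 in mES cells (edgeR adjusted p = 1.78e-07) and -0.59 in K562 (adjusted p = 0.0153). LRPPRC, which stabilizes mitochondrial messenger RNA, was also lower in both, at -1.74 (edgeR adjusted p = 1.58e-10) and -1.13 (adjusted p = 6.15e-08). TFAM, which packages mitochondrial DNA, was lower in mES cells (-2.09, edgeR adjusted p = 1.94e-06) and higher in K562 (1.05, adjusted p = 0.0249). TUFM, the mitochondrial elongation factor Tu, went the same way, at -1.49 (edgeR adjusted p = 0.00317) and 1.21 (adjusted p = 0.00503). The difference of the lines passed for both, at 2.51 for TFAM (edgeR adjusted p = 0.00049) and 2.06 for TUFM (adjusted p = 0.0111). POLRMT, the mitochondrial RNA polymerase, was lower in mES cells (-1.71, edgeR adjusted p = 1.53e-05) and at 0.00 in K562, with a difference that did not pass (1.07, adjusted p = 0.0762).

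The m5C methyltransferases of mitochondria split. NSUN4, which methylates the small ribosomal RNA and helps to join the subunits, was at -1.41 in mES cells (edgeR adjusted p = 0.000113) and 0.57 in K562 (adjusted p = 0.0232), a difference of 1.34 (adjusted p = 0.00368). NSUN3, which methylates a mitochondrial transfer RNA, did not pass in mES cells (-0.34, edgeR adjusted p = 0.245) and was lower in K562 with 3 counts (-2.33, adjusted p = 0.00129). Its difference of -2.63 (edgeR adjusted p = 0.015) was opposite in sign to that of NSUN4. These values are of the transcripts of these genes, and say nothing of the activity of the enzymes.

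The authors' peak lists for the 3 mES cell m5C-IP replicates, of 11146, 15404 and 15797 peaks, were the other readout. Only 1 of the 78 members, Mrpl33, held peaks of at least 2 replicates on its own strand, against 7.7% of the protein-coding genes tested. Mrpl33 had such a peak in all 3 replicates, but at 3 different places, and since its span is shared with Gm43809 the peaks cannot be given to one of the genes. Mrps27 and Mrpl1 had a peak in 1 replicate, and 75 members had none. On either strand 4 members held peaks of at least 2 replicates, against 19.5%. These shares were not matched for span length, and members were short, with a median span of 7899.5 bases against 27011. Their part in the peak shares was not tested. Mrpl33 itself was not among the members tested for IP against Input. The strand of the lists is uncertain, as each list had more peaks on the opposite than on the same strand of protein-coding genes (2885 against 2051 in replicate 1).

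Peaks at the same place in 2 replicates occurred in 2 members, Mrps9 and Mrpl1, both in introns and both recorded on the strand opposite to the gene. They are shown on the strand of the gene (GRCm38), with the cytosines in capitals, because they are the only stretches of a member that were called in 2 replicates.
Mrps9 (chr1:42888701-42888850, plus strand, replicate 2): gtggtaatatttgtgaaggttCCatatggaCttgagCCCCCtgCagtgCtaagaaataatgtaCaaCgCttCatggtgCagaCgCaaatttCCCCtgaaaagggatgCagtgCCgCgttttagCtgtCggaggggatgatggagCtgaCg
Mrpl1 (chr5:96218230-96218382, plus strand, replicate 2): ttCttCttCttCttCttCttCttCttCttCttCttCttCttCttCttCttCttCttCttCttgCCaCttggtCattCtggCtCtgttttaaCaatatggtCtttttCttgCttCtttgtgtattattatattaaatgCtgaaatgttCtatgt

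The Mrps9 stretch has 29 cytosines, 6 of them followed by G, and no base in a masked repeat. The Mrpl1 stretch opens with a CTT repeat, and 56.2% of it is masked, and the peak of replicate 3 was shifted by 1 base. Neither gene was higher in m5C-IP as a whole, with a log2 IP/Input of -2.51 for Mrps9 and -1.96 for Mrpl1.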

How the data were processed

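The libraries, built by the authors with a stranded total RNA kit, were trimmed with Trimmomatic 0.39 and aligned with HISAT2 2.1.0 to mm10 or hg38. Per the labels, SAMtools 1.16.1 and MACS2 were also used. The deposited values were raw counts per gene, and the closing lines of unassigned reads were left out of totals and tests (19.0% to 19.3% of an mES cell Input library, 71.4% to 71.7% of an m5C-IP library, and 26.0% to 26.2% and 60.7% to 61.4% in K562). The peak lists, called by the authors in each mES cell m5C-IP replicate, were used for their positions. Columns of counts were joined by gene ID to GENCODE annotations of the same builds but other releases (99.93% of mouse and 99.12% of human IDs matched).

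Counts were tested with edgeR 4.0.16 (quasi-likelihood, TMM, filterByExpr, Benjamini-Hochberg, threshold 0.05) in R 4.3.3, separately in each line, and jointly over symbols shared by mouse and human. The scripts were tested on simulated data. Alternatives were DESeq2 1.42.0, other scalings and filters, GC corrections, thinned Input, a replicate block and each library left out. Shares given for a list describe it and are no test of it. The members, the lists and the rule for named genes were chosen with earlier results of these data known. Named were, per line, the called members at each end (up to 5) whose libraries did not overlap and that had at least 5 m5C-IP counts, the 4 largest differences between lines, the 3 highest and lowest levels, members with peaks of at least 2 replicates and a panel by role. Mrps9, Mrpl1, Mrps16, MRPS25, MRPS31 and MRPL20 were named after their values were seen, as were the members compared for their motifs. Over genes, K562 Input replicates 1 and 2 and replicates 1 and 3 differed by less than sampling noise (chi-square per degree of freedom 0.912 and 0.918), but over 20 bins of GC content by 36.5 and 21.0 times it. They were kept as 3 libraries. With replicates 1 and 2 summed, an alternative chosen after seeing the data, 3 members were higher and 2 lower in K562, and 17 differed between the lines.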

Additional observations from a re-analysis of the deposited data

Results flagged for a closer look

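The IP/Input ratio of 11 named members differed between the lines by the interaction of line and library kind, in each case higher in K562 than in mES cells. The log2 differences were 2.04 for MRPS25, 2.07 for MRPS22, 2.16 for MRPL4, 2.34 for MRPS30, 2.40 for MRPL11, 2.73 for MRPS18C, 2.81 for MRPL10 and 4.90 for MRPS18B. For MRPL41 (9.02), MRPS34 (9.04) and MRPL36 (10.51) the mES cell m5C-IP held no count, so the fitted numbers are not sizes. Only MRPS22 kept its call under all 22 alternatives, none of which changed the span counted. With each library left out in turn, 4 of the 20 members called kept theirs. Depth, species and medium differ with the line, and their part was not tested.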

How the results depend on the processing

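In mES cells the members remained below all genes under every alternative run. Their median log2 IP/Input relative to all genes was -1.76, and -1.68 with a GC correction, -1.71 with a correction for the GC content of the span (chosen after seeing the data), -1.69 with Input thinned to the m5C-IP depth, -1.35 over the 33 members with at least 20 m5C-IP counts, -2.97 without a filter, and -1.78 to -1.73 with single libraries left out. The count of lower members was 66, and 23 with thinned Input, 28 of 33 with at least 20 m5C-IP counts, 38 with library size alone, which gave 2 higher, and 58 to 63 with single libraries left out (0 to 0 higher). With library size alone MRPL12 (0.0336), MRPS16 (0.0624), MRPL48 (0.61) and MRPS36 (0.95) turned positive, and with thinned Input MRPL58 (0.0715) and MRPS16 (0.0451) did. In K562, higher members numbered 1 with the span correction, 0 with thinned Input, 2 with at least 20 m5C-IP counts (of 7), 1 without a filter and 1 with the replicate block, and lower members 0 with DESeq2, 0 with thinned Input, 0 with at least 20 m5C-IP counts, 1 with library size alone and 8 without a filter. The K562 median relative to all genes was 0.29 with thinned Input and 0.26 without a filter. Leaving single libraries out gave 2 to 4 higher, 1 to 3 lower and a median of -0.02 to 0.12. For the difference of the lines, higher members numbered 3 with thinned Input, 9 with RLE scaling, 2 of 6 with at least 20 m5C-IP counts, 13 with library size alone and 9 to 21 with single libraries left out. Lower members numbered 3 with DESeq2, 1 with RLE scaling, 1 with at least 20 m5C-IP counts, 1 with library size alone and 0 to 1 with single libraries left out. The median relative to all genes was 0.80 with thinned Input, 0.57 with at least 20 m5C-IP counts and 0.86 to 1.19 with single libraries left out. Members with a peak numbered 3 if 1 replicate was enough and 4 on either strand. The cause of these changes was not tested.

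The main tests did not pair libraries by replicate number. Deviations of same-numbered Input and m5C-IP libraries correlated at -0.0065 to 0.0293, and each library correlated best with its own number except Input 1 and m5C-IP 1 of K562. Counts per gene in m5C-IP were few, so correlations this small cannot show whether the numbers mark pairs. With the replicate block 60 members were lower in mES cells, 2 in K562, and 20 differed between the lines. Of the calls, 14 of 66, 0 of 7 and 1 of 20 were kept in every alternative, and 57 of 66, 1 of 7 and 4 of 20 with each library left out. Depth limits K562 most, where a tested member had a median of 7 m5C-IP counts.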
